A study of Mus musculus with 11 samples.

Results

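Basophils, mast cells and eosinophils are rare blood-derived cells, and 6 of the genes that mark them are described here in the mandibular condylar fibrocartilage of young female mice. The genes are Mcpt8, Prss34, Cpa3, Ms4a2, Prg2 and Epx, 6 of the 23420 gene symbols in the count table, and 6 of the 6 passed the filter on low counts. They were listed by name, with their levels in the 4 groups of this study already known. The levels below are therefore a description, and no p-value is given for any of the 6.

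The study asked how 17β-estradiol (E2) acts through estrogen receptor alpha on gene expression in this tissue, the fibrous and cartilaginous cap of the jaw joint. All animals were C57BL/6 females whose ovaries were removed at 6 weeks of age and whose tissue was taken at 7 weeks, after 1 week of placebo (Plb) or of a 0.01 mg, 60-day-release estradiol pellet. The genotypes were wild type (WT) and ERalphaKO, the receptor alpha knockout, written KO. This gave 4 groups over 11 samples, with 2 samples of WT Plb and 3 each of WT E2, KO Plb and KO E2. The labels do not say which part of the receptor gene the knockout lacks, and nothing in them ties a sample to an animal of its own, so the spread between samples may be technical in part. Every animal had lost its ovaries, so no group stands for an intact female.

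Basophils, mast cells and eosinophils arise from progenitors in the bone marrow. Basophils and eosinophils complete most of their development there, and mast cells mature after they settle in tissues. Mcpt8 and Prss34 encode granule serine proteases that in mice mark basophils. Cpa3 encodes carboxypeptidase A3, a granule enzyme of mast cells and basophils, and Ms4a2 encodes the beta chain of the high-affinity IgE receptor that both cell types carry. Prg2 encodes major basic protein and Epx encodes eosinophil peroxidase, the main granule proteins of eosinophils. GATA1 and GATA2 are transcription factors these lineages depend on, and they bind DNA at sites built around the letters GATA.

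The stretches of 250 bases that precede the annotated transcription start are shown for 4 of the genes. They were chosen because Prss34, Cpa3 and Ms4a2 hold AGATAA there and Mcpt8, whose levels ran close to those of Prss34, does not. Only AGATAA and TGATAA were searched for, so other runs of the letters GATA are not marked. The sequences are from RefSeq on build GRCm38.p6, read 5′ to 3′ on the gene's own strand. Capitals mark AGATAA, or TTATCT where the same word lies on the other strand.
Prss34: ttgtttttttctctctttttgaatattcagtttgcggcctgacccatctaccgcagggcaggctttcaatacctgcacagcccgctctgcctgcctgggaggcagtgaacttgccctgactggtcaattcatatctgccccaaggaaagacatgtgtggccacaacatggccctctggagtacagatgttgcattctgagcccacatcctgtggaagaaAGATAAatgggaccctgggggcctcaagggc
Cpa3: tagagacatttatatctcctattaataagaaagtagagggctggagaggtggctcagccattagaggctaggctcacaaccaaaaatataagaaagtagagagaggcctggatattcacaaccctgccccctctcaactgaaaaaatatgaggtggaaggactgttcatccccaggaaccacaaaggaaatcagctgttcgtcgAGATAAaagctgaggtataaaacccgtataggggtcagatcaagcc
Ms4a2: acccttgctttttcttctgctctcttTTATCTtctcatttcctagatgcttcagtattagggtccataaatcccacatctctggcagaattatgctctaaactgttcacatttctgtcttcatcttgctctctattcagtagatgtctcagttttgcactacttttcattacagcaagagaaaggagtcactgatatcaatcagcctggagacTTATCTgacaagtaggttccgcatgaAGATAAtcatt
Mcpt8: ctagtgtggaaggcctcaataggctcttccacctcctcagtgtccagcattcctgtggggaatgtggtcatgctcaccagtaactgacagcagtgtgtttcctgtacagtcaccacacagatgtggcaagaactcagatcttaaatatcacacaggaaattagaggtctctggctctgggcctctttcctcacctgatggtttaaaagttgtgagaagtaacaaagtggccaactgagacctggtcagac

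The Prss34 stretch is chr17:25298144-25298393 on the plus strand, with AGATAA beginning 31 bases before the start. The Cpa3 stretch is chr3:20242182-20242431 on the minus strand, with AGATAA 46 bases before the start. The Ms4a2 stretch is chr19:11623720-11623969 on the minus strand and holds 3 matches, at 224 and 37 bases before the start on the reverse strand and at 11 bases on the forward strand. The Mcpt8 stretch, chr14:56085198-56085447 on the minus strand, had 0 matches, as did that of Epx. The table held an entry for 5 of the 6 genes, the exception being Prg2. AGATAA was present on either strand in 3281 of 32851 such stretches, or 9.99%, and the related word TGATAA, in 7.94% of all stretches, was in none of the 5. A match is a run of letters and not a measured binding site.

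Libraries held 15.7 to 25.5 M counts. Levels are counts per M (CPM) of library totals scaled by TMM, a method that sets the bulk of genes level between libraries. The floor of 3 counts per library corresponds to 0.118 to 0.204 CPM, and all intervals and floors cover counting error only, since the reads carry no molecular identifiers and may repeat a molecule. Esr1, which encodes the receptor, was at 6.43 to 13.4 CPM in the WT libraries and 2.55 to 4.86 CPM in the KO libraries, counted over the whole gene. Of 12 cartilage and 10 fibrous layer genes, 0 were at 0 counts in any library. Presence alone is a weak check of the tissue label and no measure of purity. Summed muscle genes ran from 7.89 to 1052 CPM over the libraries. WT Plb 2 stood apart in its share of the ribosomal RNA gene Rn45s, 16.0% of counts against 1.83 to 3.13% elsewhere, and KO Plb 1 nearly lacked granulocyte RNA, as described below. Without WT Plb 2, the WT placebo group is WT Plb 1 alone, whose 6 levels still exceeded those of every WT estradiol library, as with Prg2 at 26.8 against at most 3.47 CPM and Epx at 5.65 against at most 0.197 CPM.

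Across the 4 groups, RNA of these 6 genes was near or at 0 in WT mice given estradiol and high in KO mice given the same pellet. WT placebo libraries lay between those levels or close to the KO estradiol libraries, and KO placebo libraries ranged from near 0 to levels within the WT placebo range for Prg2 and Epx. Since whole tissue was sequenced, fewer cells of a type and less RNA per cell cannot be told apart.

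**Figure D1:**
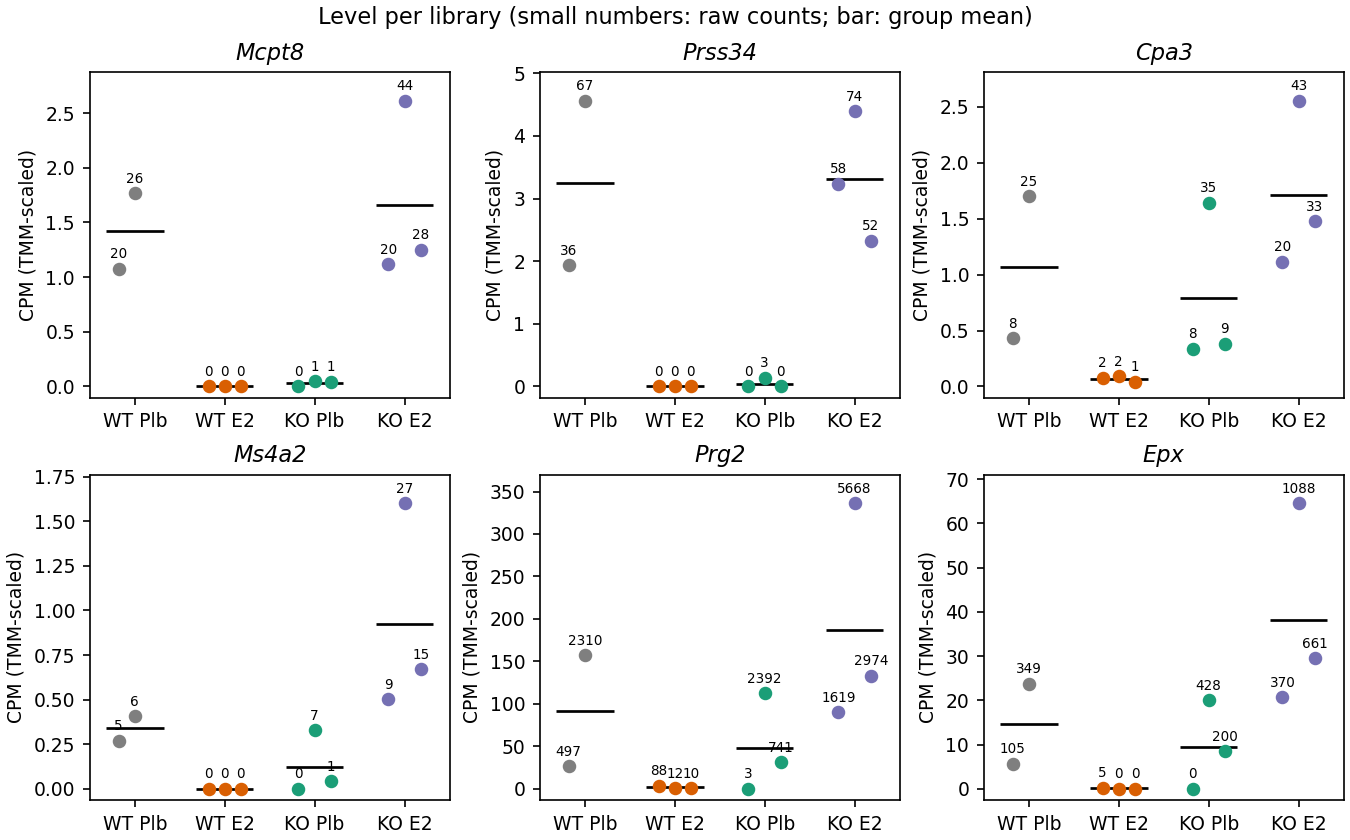
Level of each of the 6 genes in every library, in TMM-scaled CPM on a linear axis that differs between panels, by group. Points are libraries, the small number above each is its raw count and the bar is the group mean; all 3 WT estradiol libraries are at 0 for Mcpt8, Prss34 and Ms4a2.

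The basophil proteases gave the clearest separation. Mcpt8 was read 20 and 26 times in the WT placebo libraries, 0 times in each of the 3 WT estradiol libraries, 0, 1 and 1 times in the KO placebo libraries, and 20, 44 and 28 times in the KO estradiol libraries. Its level was 1.42 ± 0.49 CPM (SD, n = 2) in WT Plb, 0.0298 ± 0.026 (n = 3) in KO Plb and 1.66 ± 0.83 (n = 3) in KO E2. Every WT placebo and every KO estradiol library lay above every library of the other groups, and these high groups overlapped each other. Against the floor of 3 counts per library in WT E2, Mcpt8 was at least 11.2-fold higher in WT Plb and at least 13.1-fold higher in KO E2. Within the KO, pooled counts were 55.2-fold higher with estradiol (95% counting interval 14.8 to 462).

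Prss34, also called mast cell protease 11, followed the same order. It was read 36 and 67 times in WT Plb, 0 times in all 3 WT E2 libraries, 0, 3 and 0 times in KO Plb, and 58, 74 and 52 times in KO E2. The means were 3.25 ± 1.9 CPM (SD, n = 2) in WT Plb, 0.0469 ± 0.081 (n = 3) in KO Plb and 3.32 ± 1.0 (n = 3) in KO E2. Again the WT placebo and KO estradiol libraries overlapped each other and lay above all other libraries. Prss34 was at least 25.6-fold higher in WT Plb than in WT E2, and 73.6-fold higher (24.8 to 360) in KO E2 than in KO Plb. Under placebo alone, WT exceeded KO 70.7-fold for Prss34 (23.5 to 349) and 47.4-fold for Mcpt8 (12.4 to 403). Among all 14531 genes tested, 13.8% had both WT placebo libraries above the 3 KO placebo libraries. Of the 6 genes, 2 did, Mcpt8 and Prss34.

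The IgE receptor subunit and the carboxypeptidase were less sharply divided. Ms4a2 had 5 and 6 counts in WT Plb, 0 in each WT E2 library, 0, 7 and 1 in KO Plb, and 9, 27 and 15 in KO E2. Its means were 0.339 ± 0.098 CPM (SD, n = 2), 0, 0.124 ± 0.18 (n = 3) and 0.925 ± 0.59 (n = 3). All KO E2 libraries, at 0.502 to 1.60 CPM, were above the highest WT placebo library at 0.408 CPM, which was close to KO Plb 2 at 0.328 CPM. Ms4a2 was at least 2.67-fold higher in WT Plb, and at least 7.30-fold higher in KO E2, than in WT E2. At 5 to 27 counts in the libraries where it was high, Ms4a2 carries wide counting error, and its 7.65-fold difference within the KO had an interval of 3.60 to 18.7.

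Cpa3, like Prg2, had counts in every library. It had 8 and 25 counts in WT Plb, 2, 2 and 1 in WT E2, 8, 35 and 9 in KO Plb, and 20, 43 and 33 in KO E2. Mean levels were 1.07 ± 0.90 CPM (SD, n = 2), 0.0707 ± 0.026 (n = 3), 0.787 ± 0.74 (n = 3) and 1.71 ± 0.75 (n = 3). The WT estradiol libraries were below all others, while KO Plb 2 at 1.64 CPM lay within the KO estradiol range of 1.12 to 2.55 CPM. Pooled Cpa3 counts were 14.2-fold higher in WT Plb than in WT E2 (5.49 to 46.4) and 24.0-fold higher in KO E2 than in WT E2 (9.92 to 75.5). Within the KO, estradiol and placebo differed 2.21-fold (1.56 to 3.17), with overlapping libraries. Cpa3 was also the only 1 of the 6 with all 3 KO placebo libraries above all 3 WT estradiol libraries, a relation found in 17.3% of all genes tested.

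The eosinophil granule genes had the most counts and varied widely inside groups. Prg2 was read 497 and 2310 times in WT Plb, 88, 12 and 10 times in WT E2, 3, 2392 and 741 times in KO Plb, and 1619, 5668 and 2974 times in KO E2. Per library this was 26.8 and 157 CPM, then 3.47, 0.552 and 0.412, then 0.127, 112 and 31.5, then 90.4, 336 and 133 CPM. The WT groups did not overlap. The KO groups did, since KO Plb 2 exceeded the lowest KO estradiol library. Between KO libraries of the same replicate number, Prg2 was higher with estradiol in 3 of 3 pairs, and so was Cpa3. For Mcpt8, Prss34, Ms4a2 and Epx, whose KO groups did not overlap, any pairing would give this result. The share of all genes higher in 3 of 3 pairs was not counted. This pairing was taken from the data and not from a label. Pooled counts differed 54.7-fold between WT Plb and WT E2 (45.2 to 66.8), 3.92-fold between KO E2 and KO Plb (3.77 to 4.09) and 116-fold between KO E2 and WT E2 (96.5 to 142).

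Epx showed the same spread. Its counts were 105 and 349 in WT Plb, 5, 0 and 0 in WT E2, 0, 428 and 200 in KO Plb, and 370, 1088 and 661 in KO E2. The group means were 14.7 ± 13 CPM (SD, n = 2), 0.0658 ± 0.11 (n = 3), 9.52 ± 10 (n = 3) and 38.3 ± 23 (n = 3). The KO groups were separated by a narrow gap, from 20.1 CPM in KO Plb 2 to 20.7 CPM in KO E2 1. Epx was 195-fold higher in WT Plb than in WT E2 (82.8 to 603), 4.05-fold higher in KO E2 than in KO Plb (3.70 to 4.43) and 529-fold higher in KO E2 than in WT E2 (226 to 1631). In KO Plb 1, Prg2 had 3 counts and Epx 0, so the KO placebo means of both rest on the other 2 libraries, at 112 and 31.5 CPM for Prg2 and at 20.1 and 8.49 CPM for Epx.

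Counted over the 6 genes, both WT placebo libraries exceeded all WT estradiol libraries for 6, where 13.8% of all genes tested did so. All KO estradiol libraries exceeded all WT estradiol libraries for 6 (17.7% of all genes) and all KO placebo libraries for 4 (12.4%). They exceeded both WT placebo libraries for 1, Ms4a2 (18.7% of all genes). In edgeR's test across all genes at an adjusted p under 0.05, estradiol in WT gave 2 of the 6 as lower (0.895% of all genes), estradiol in KO gave 2 as higher (2.36%, and 2.73% in either direction), and KO against WT under estradiol gave 5 as higher, all but Prg2 (7.27%). Ms4a2 passed the filter on low counts only through the KO E2 libraries, and Epx lost that call in 7 of 16 alternatives. The difference of the estradiol effects, WT minus KO, gave 2 as lower (0.84%, with 0.31% higher), and KO against WT under placebo gave 0, with 0.00688% of all genes called. DESeq2 called 6, 2, 6, 6 and 2 in the same order of comparisons. Over all genes it called 656 for estradiol in WT, 952 in KO, 561 for the difference and 40 for genotype under placebo. For KO against WT under estradiol its total was within 1.5 times of the 1667 called by edgeR. The genes were listed with these contrasts known, so nothing is read from these counts. Median log2 differences of the 6, with genes at 0 in a group set at their bound, were -4.23 for estradiol in WT, 2.45 for estradiol in KO and 4.60 for KO against WT under estradiol, beside medians over all genes within 0.01 of 0.

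The ratio of basophil to eosinophil reads varied between libraries. The share of Prss34 in the reads of Prss34 and Epx together compares 2 genes inside 1 library, so neither depth nor scaling enters it. It was 25.5% (exact 95% interval 18.6 to 33.6) and 16.1% (12.7 to 20.0) in the WT placebo libraries. It was 13.6% (10.5 to 17.2), 6.37% (5.03 to 7.93) and 7.29% (5.49 to 9.45) in the KO estradiol libraries. In KO Plb 2 it was 0.696% (0.144 to 2.02), and in KO Plb 3 it was 0 of 200 reads (exact 95% upper bound 1.83%, or 1.5% by the limit of 3 counts). KO Plb 1 and the WT estradiol libraries had too few reads of either gene for a share.

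KO Plb 2 and KO Plb 3 thus carried Epx at 20.1 and 8.49 CPM, within or near the WT placebo values of 5.65 and 23.7 CPM, with 3 and 0 reads of Prss34. The Mcpt8 share of Mcpt8 plus Epx had the same order, at 16% and 6.93% in WT Plb, 0.233% and 0.498% in KO Plb 2 and 3, and 5.13%, 3.89% and 4.06% in KO E2. Ratios inside each pair were as follows. Epx reads per 100 Prg2 reads were 21.1 and 15.1 in WT Plb, 17.9 and 27.0 in KO Plb 2 and 3, and 22.9, 19.2 and 22.2 in KO E2. Mcpt8 reads per 100 Prss34 reads were 55.6 and 38.8 in WT Plb and 34.5, 59.5 and 53.8 in KO E2. In WT E2 1 there were 5.68 Epx reads per 100 Prg2 reads, on 88 Prg2 reads and below the other values, and there were 0 in WT E2 2, WT E2 3 and KO Plb 1, on 12, 10 and 3 Prg2 reads. KO Plb 2 had only 3 reads of Prss34 for its ratio. These are ratios of reads, and the genes differ in length.

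**Figure D2:**
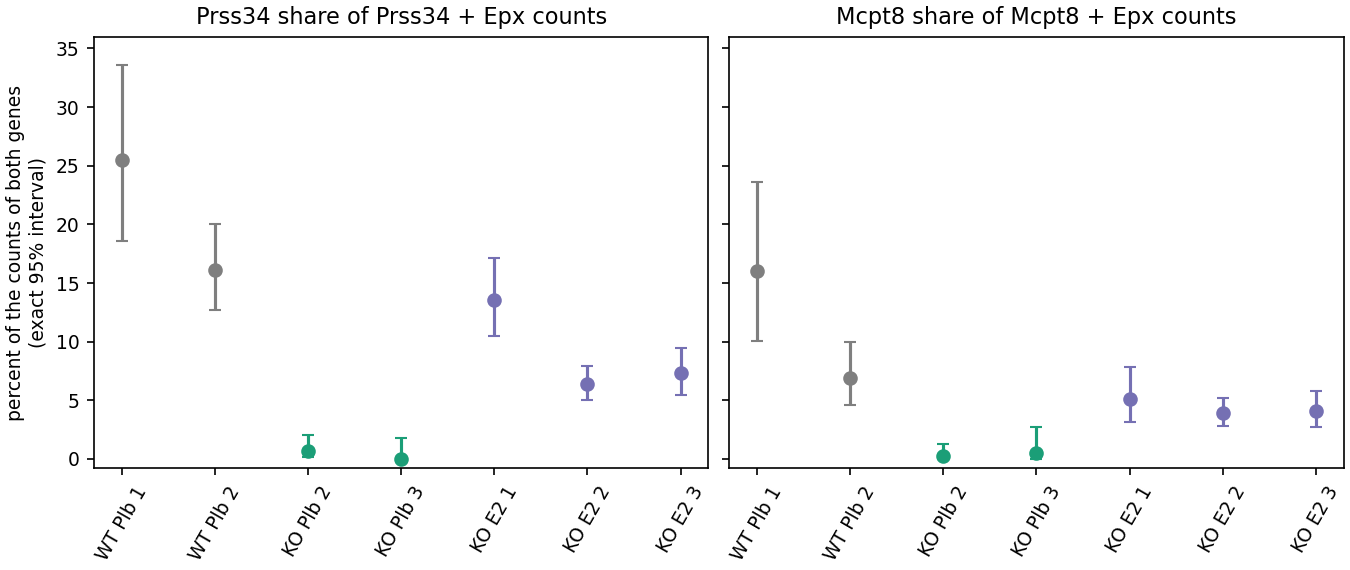
Share of Prss34 (left) and Mcpt8 (right) in the reads of that gene and Epx together, in percent, for the 7 libraries with enough reads; bars are exact 95% intervals for counting error. KO Plb 2 and KO Plb 3 lie below 1% and all WT placebo and KO estradiol libraries above 3%.

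Beyond the 6 genes, 68 related genes in 7 lists were examined, 67 of them in the table and 52 tested. In the comparison of KO with WT under estradiol, 18 of the 52 rose and 3 fell in edgeR's quasi-likelihood test (p-values adjusted after Benjamini and Hochberg over all 14531 genes), where 7.27% of all genes tested were called higher and 4.2% lower. The median log2 difference of the 52 was 0.44, against 0.00 over all genes. Of the 18, 3 (Il5ra, Gata1 and Ccl24) did not pass the filter on low counts without the KO E2 libraries, which leaves 15. Il5ra and Gata1 were highest in KO E2, while Ccl24 was at 0.462 CPM there and 0.502 CPM in WT Plb. The count depended on which library was left out. Without WT E2 1, 2 or 3 in turn the count of 21 became 11, 12 or 9. Without KO E2 2 or 3 it became 10 or 13, and without KO E2 1 it became 22. The lists were drawn up with earlier results of these data known and give no independent support.

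Of the eosinophil genes, 5 of 8 tested were higher and 0 lower in KO E2 than in WT E2, with a median log2 difference of 5.87 with genes at 0 set at their bound. Prg3, a second major basic protein, had 0 counts in all WT E2 libraries and 104, 270 and 154 in KO E2, at least 75.6-fold higher (edgeR adjusted p = 0.0391). Its adjusted p ran from 4.8e-08 to 0.0921 over 16 alternatives. Il5ra, the receptor for the eosinophil growth factor interleukin-5, had 0 counts in WT E2 and 8, 21 and 19 in KO E2, at least 6.69-fold higher. Outside KO E2 it had at most 4 counts in any library, so it passed the filter on low counts only through the group where it was high, and its call is no support. The eosinophil ribonuclease Ear2 had 0, 4 and 0 counts in WT E2 and 15, 100 and 40 in KO E2, without passing the test (log2 difference 5.50, SE 1.66, edgeR adjusted p = 0.0655). Ear1 and Ear6 were singled out after their values were seen. Pooled counts were 101-fold higher in KO E2 for Ear1 (67.2 to 160), which missed the threshold, and 174-fold higher for Ear6 (47.6 to 1440), which passed. The Ear genes are near-identical copies and reads could be split between them, so the values of each are uncertain. Ccr3, also of this list and named after its values were seen, was not called. It had 122, 119 and 114 counts in WT E2, where Epx had 5, 0 and 0. Its level was 4.70 to 5.47 CPM in WT E2 and 4.02 to 9.14 CPM in KO E2, with overlapping libraries. Under placebo its mean was 4.95 CPM in WT Plb and 3.92 CPM in KO Plb.

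Mast cell proteases had 2 of 3 tested members higher in KO E2 than in WT E2, with a median log2 difference of 2.65. Mcpt4, a connective tissue mast cell chymase, had 13 and 22 counts in WT Plb, 4, 2 and 4 in WT E2, 18, 55 and 11 in KO Plb, and 16, 40 and 38 in KO E2. It rose from 0.138 ± 0.040 to 1.66 ± 0.74 CPM (SD, n = 3 each; log2 difference 3.51, SE 0.73, edgeR adjusted p = 0.00995). Tpsb2, a mast cell tryptase, rose from 0.191 ± 0.17 to 1.20 ± 0.71 CPM (log2 difference 2.65, SE 0.78, edgeR adjusted p = 0.0476), and lost the call in 8 of 16 alternatives, with adjusted p up to 0.144. Cma1, another chymase, was at 0.217 ± 0.15 and 0.945 ± 0.61 CPM and missed the threshold (log2 difference 2.12, SE 0.73, edgeR adjusted p = 0.0826). Under placebo, mean Tpsb2 was 1.06 CPM in WT Plb and 0.840 CPM in KO Plb, and mean Cma1 0.670 and 0.791 CPM. In KO Plb 1, which had 0 reads of Mcpt8, Prss34, Ms4a2 and Epx, these proteases were present with 18 counts of Mcpt4, 15 of Cma1 and 16 of Tpsb2, beside 8 of Cpa3.

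**Figure D3:**
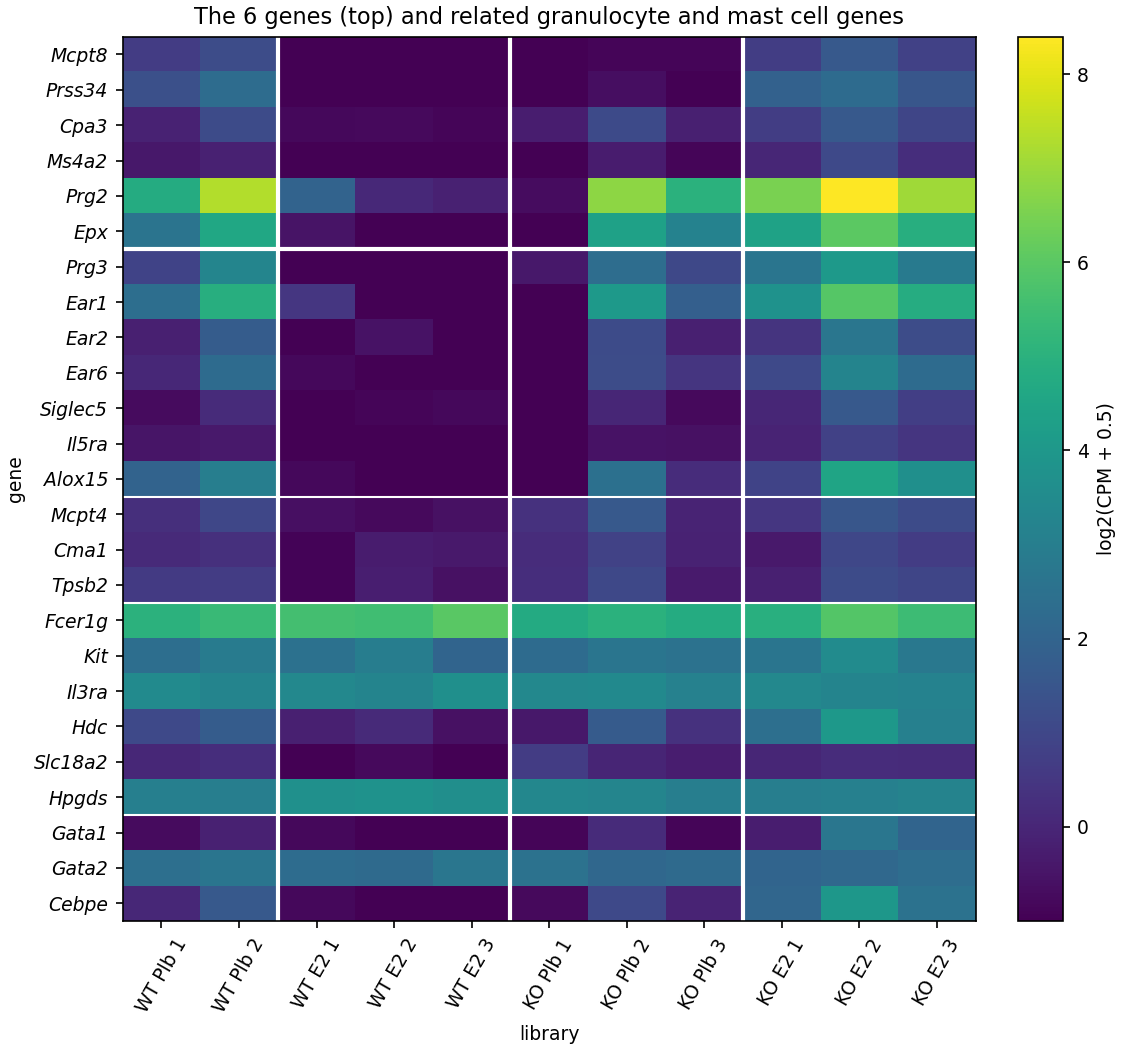
Heat map of log2(CPM + 0.5) for the 6 genes (top block) and, below them, eosinophil, mast cell protease and other related genes in the 11 libraries, ordered by group. WT estradiol libraries are dark for the top block, KO Plb 1 is dark for Mcpt8, Prss34, Ms4a2, Prg2 and Epx, and Fcer1g, Kit, Il3ra and Gata2 are present in every library.

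Receptor genes, several of which other cells also carry, gave few calls. Of 10 tested receptors, 0 rose and 1 fell in KO E2 against WT E2, with a median log2 difference of 0.07. The gene that fell was Cd63, a membrane protein of granules and lysosomes in many cells, named here after its values were seen. Fcer1g, the signalling chain of the IgE receptor that macrophages also express, was at 52.4 ± 9.8 CPM in WT E2 and 43.8 ± 14 CPM in KO E2 (log2 difference -0.26, SE 0.22, edgeR adjusted p = 0.494). Kit, the stem cell factor receptor of mast cells and progenitors, was at 5.44 ± 2.0 and 7.75 ± 2.9 CPM (log2 difference 0.51, SE 0.30, edgeR adjusted p = 0.303). Il3ra, a chain of the interleukin-3 receptor, was at 10.4 ± 1.6 and 9.11 ± 0.70 CPM (log2 difference -0.19, SE 0.15, edgeR adjusted p = 0.44). Fcer1a, the IgE-binding chain, had 0 to 7 counts per library and was too low to test. Its counts were 0 and 2 in WT Plb, 0 in each WT E2 library, 4, 0 and 1 in KO Plb and 2, 6 and 7 in KO E2, at least 2.05-fold higher in KO E2 than in WT E2.

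Genes for mediators that these cells store or make gave 4 higher and 2 lower of 7 tested, with a median log2 difference of 2.11. Hdc, the enzyme that makes histamine, had 30 and 41 counts in WT Plb, 10, 13 and 4 in WT E2, 6, 59 and 18 in KO Plb, and 87, 266 and 179 in KO E2. It rose from 0.386 ± 0.22 to 9.55 ± 5.6 CPM under estradiol (log2 difference 4.62, SE 0.83, edgeR adjusted p = 0.00807), with no overlap of libraries. Slc18a2, the vesicle transporter that loads amines such as histamine, had 10 and 10 counts in WT Plb and 26, 10 and 8 in KO Plb. It had 0, 2 and 0 counts in WT E2 and 9, 11 and 14 in KO E2. Pooled counts in KO E2 were 0.927-fold those in KO Plb (0.574 to 1.48). Against WT E2 the KO E2 ratio was 21.2-fold (5.44 to 182), with an edgeR adjusted p of 0.0111. Hpgds, a prostaglandin D2 synthase also found in other cells, went the other way. It fell by 0.65 on the log2 scale (SE 0.12, edgeR adjusted p = 0.00645), from 12.8 ± 0.72 CPM in WT E2 to 8.13 ± 0.49 CPM in KO E2. Il4, a cytokine that basophils release, had 0 to 2 counts per library and was not tested.

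Transcription factors divided by gene, with 2 of 8 tested higher, 0 lower and a median log2 difference of 0.11. Cebpe, which drives terminal granulocyte maturation, had 2, 0 and 0 counts in WT E2 and 68, 255 and 119 in KO E2. This is a 276-fold ratio of pooled counts (75.9 to 2286; edgeR adjusted p = 0.00699). Gata1, used by eosinophil, mast cell, red cell and platelet lineages, had 2, 0 and 0 counts in WT E2 and 6, 99 and 79 in KO E2, a 115-fold ratio (31.4 to 956). It too passed the filter only through the KO E2 libraries, so no p-value is given. Gata2 was at 4.93 ± 0.92 and 4.07 ± 0.52 CPM (log2 difference -0.27, SE 0.20, edgeR adjusted p = 0.403).

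Signalling genes downstream of the IgE receptor gave 4 of 10 higher and 0 lower, with a median log2 difference of 0.17. Syk, a kinase recruited to the receptor in mast cells and to the antigen receptor in B cells, rose from 44.7 ± 1.9 to 111 ± 22 CPM (log2 difference 1.31, SE 0.19, edgeR adjusted p = 0.00162). Plcg2, a phospholipase that acts after it, rose from 26.9 ± 3.0 to 50.3 ± 9.0 CPM (log2 difference 0.90, SE 0.14, edgeR adjusted p = 0.0022). Of 6 tested cytokines that support these cells, 1 was called higher, 0 were called lower, and the median log2 difference was 0.65. The 1 was the eotaxin gene Ccl24, named after its values were seen. Ccl24 had 6 and 10 counts in WT Plb, 2, 0 and 0 in WT E2, and 3, 16 and 6 in KO E2. It did not pass the filter on low counts without the KO E2 libraries.

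**Figure D4:**
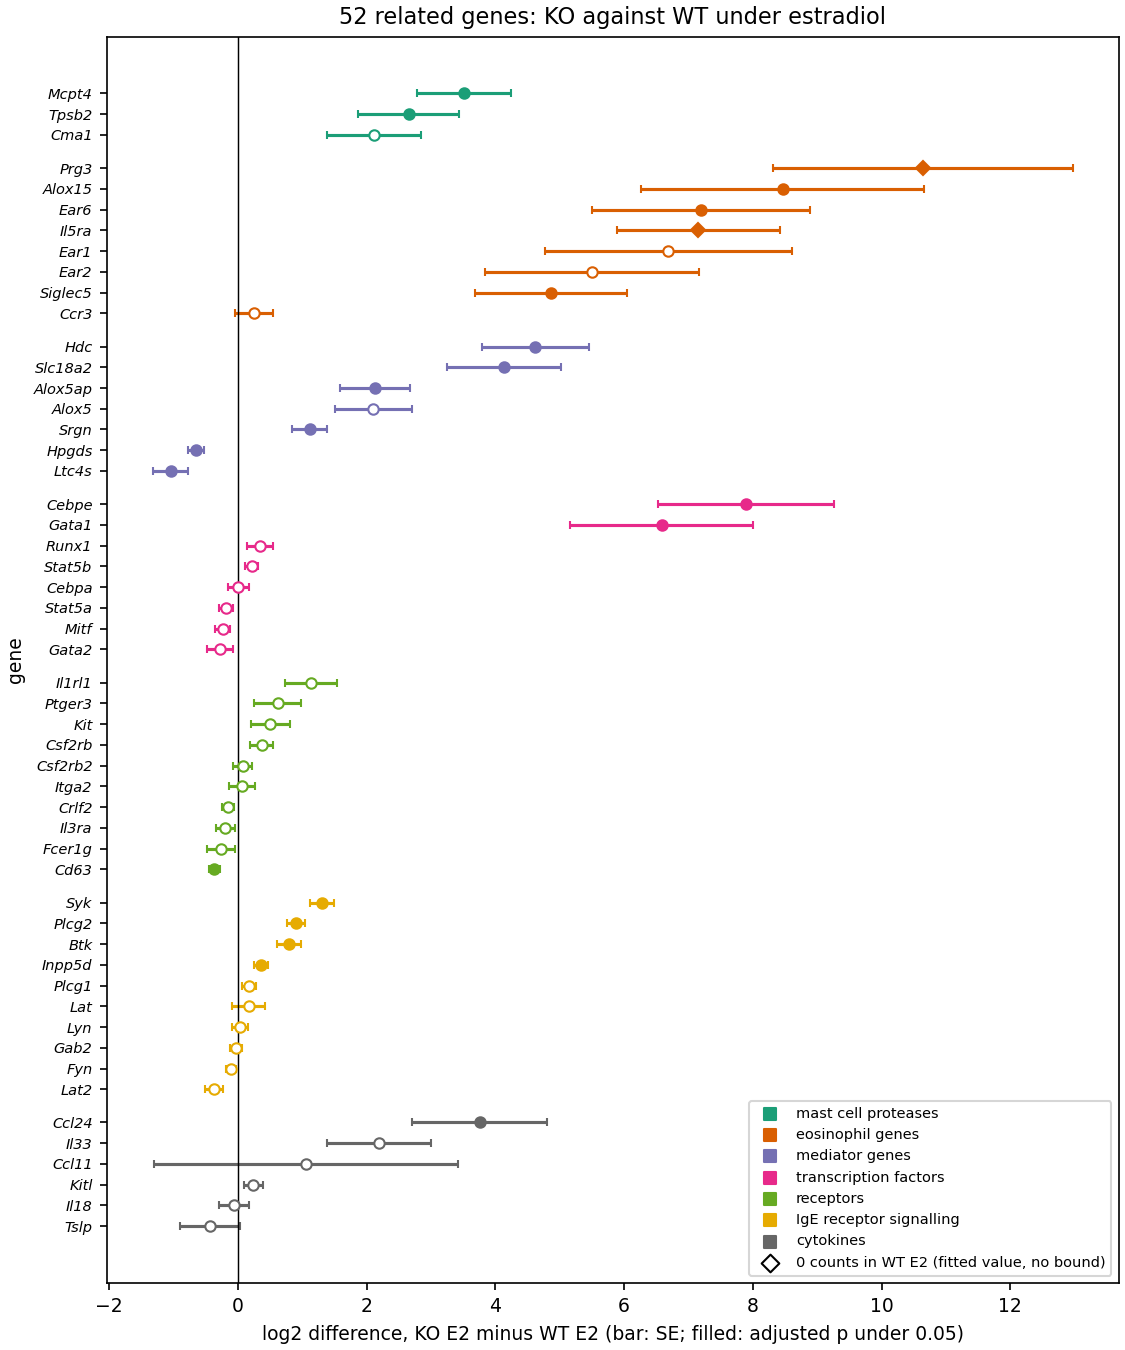
Log2 difference between KO E2 and WT E2 for the 52 related genes tested, grouped by list; bars are standard errors and filled symbols are genes with an edgeR adjusted p under 0.05. Diamonds mark Prg3 and Il5ra, which had 0 counts in WT E2, so that their plotted values depend on the fit and are not bounds.

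Within each genotype few of these related genes passed the test. Estradiol against placebo in WT called 1 of the 52 higher and 0 lower by edgeR, beside 0.654% and 0.895% of all genes, with a median of -0.17. The gene was Hpgds, which rose from 7.74 ± 0.17 CPM (SD, n = 2) to 12.8 ± 0.72 CPM (n = 3; log2 difference 0.72, SE 0.14, edgeR adjusted p = 0.0277). It lost the call in 5 of 16 alternatives, among them leaving out WT Plb 1, WT Plb 2, WT E2 1 or WT E2 2, with adjusted p up to 0.122. At an unadjusted p under 0.05, 7 genes were higher and 14 lower, and the share of all genes at that level was not counted. DESeq2 called 1 higher and 9 lower, beside 656 of all genes in either direction.

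Estradiol against placebo in KO called 2 of the 52 higher and 0 lower, beside 2.36% and 0.365% of all genes, with a median of 0.38. Syk rose from 61.0 ± 14 to 111 ± 22 CPM (log2 difference 0.86, SE 0.18, edgeR adjusted p = 0.0376). Btk, a kinase of the same pathway, rose from 11.5 ± 2.5 to 20.1 ± 5.0 CPM (log2 difference 0.81, SE 0.19, edgeR adjusted p = 0.0428). Replicate numbers were taken to pair the KO libraries, but the block for replicate number was fitted over all 11 libraries. It thus also covered WT Plb and WT E2, whose same-numbered deviations correlated at -0.176 and -0.188. With this block 11 of the 52 rose and 0 fell, beside 3.73% and 0.599% of all genes. With the block Cebpe (log2 difference 3.65, SE 0.45, edgeR adjusted p = 0.00284), Hdc (3.09, SE 0.40, adjusted p = 0.00375), Prg3 (2.50, SE 0.43, adjusted p = 0.0226) and Ear2 (2.31, SE 0.52, adjusted p = 0.0335) passed. Without it they were at 3.51, 2.93, 2.16 and 2.02 with adjusted p of 0.0853, 0.0723, 0.393 and 0.452. Among the 6 genes, 2 were called with the block as without it. Without the block, Syk lost the call in 9 of 16 alternatives and Btk in 8, including those without any 1 of the KO placebo libraries or without KO E2 2. DESeq2 called 11 higher and 0 lower, beside 952 of all genes in either direction.

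The difference of the estradiol effects called 0 of the 52 by edgeR (1.15% of all genes in either direction), with 3 higher and 21 lower at an unadjusted p under 0.05, and 1 and 14 by DESeq2. KO against WT under placebo called 0 by edgeR, 2 higher and 0 lower at an unadjusted p under 0.05, and 0 by DESeq2. Over all genes DESeq2 called 561 for the difference and 40 for genotype under placebo. The shares of all genes at an unadjusted p under 0.05 were not counted. The medians of the 52 were -0.55 and -0.11.

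Over the 11 libraries, the genes with the pattern most like each of the 6 were found by Pearson's r of log2(CPM + 0.5). These correlations are a description over libraries that share groups, depth and cell makeup. Mcpt8 was most like Cst7, a cystatin of granulocytes and cytotoxic cells, and Ms4a3, a marker of granulocyte and monocyte progenitors (r = 0.94 for each), with the granule protease Prss57 next (0.94). Prss34 was most like Ms4a3 (0.93), Nkg7 (0.92) and Prss57 (0.91). For Cpa3, Prg3 (0.98) and Rgs18 (0.96) were among the 3 most alike, and Ms4a2 was most like Sema4a, C3 and Hp (0.99 for each). Prg2 was most like Ear1 (0.99) and the neutrophil granule genes Mpo (0.98) and Elane (0.97), and Epx like Ear1, Mpo and Prg3 (0.98 for each). Among the 6, Mcpt8 with Prss34 and Prg2 with Epx each reached 0.99, and the other pairs 0.77 to 0.93.

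RNA of 14 neutrophil genes followed these genes across libraries, and B lineage RNA did so only in part. For KO against WT under placebo, the median log2 difference was 1.16 for the B lineage genes and -1.19 for the 6 genes. The summed level of 14 neutrophil genes was 225 and 506 CPM in WT Plb, 8.68 to 44.4 in WT E2, 1.52, 763 and 170 in KO Plb and 1305 to 4718 in KO E2. A further gene of the list, Mmp9, was left out of that sum after its values were seen. With it the sums were 3483 to 3789 CPM in WT Plb, 3350 to 4047 in WT E2, 3122 to 3663 in KO Plb and 3915 to 7748 in KO E2, so that the WT groups overlapped. Of the 15, Elane, Ms4a3, Fcnb, Ltf and Mmp8 were at 0 counts in KO Plb 1, and 10 of 15 tested were called higher in KO E2 than in WT E2. The summed level of 16 B lineage genes was 74.4 and 86.0 CPM in WT Plb, 19.5 to 23.6 in WT E2, 255, 198 and 122 in KO Plb and 243 to 430 in KO E2, and 15 of 15 tested were called higher in KO E2. KO Plb 1, with 0.47 CPM summed over the 6 genes, thus had the lowest sum of the 14 neutrophil genes and a B lineage sum above those of every WT library.

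**Figure D5:**
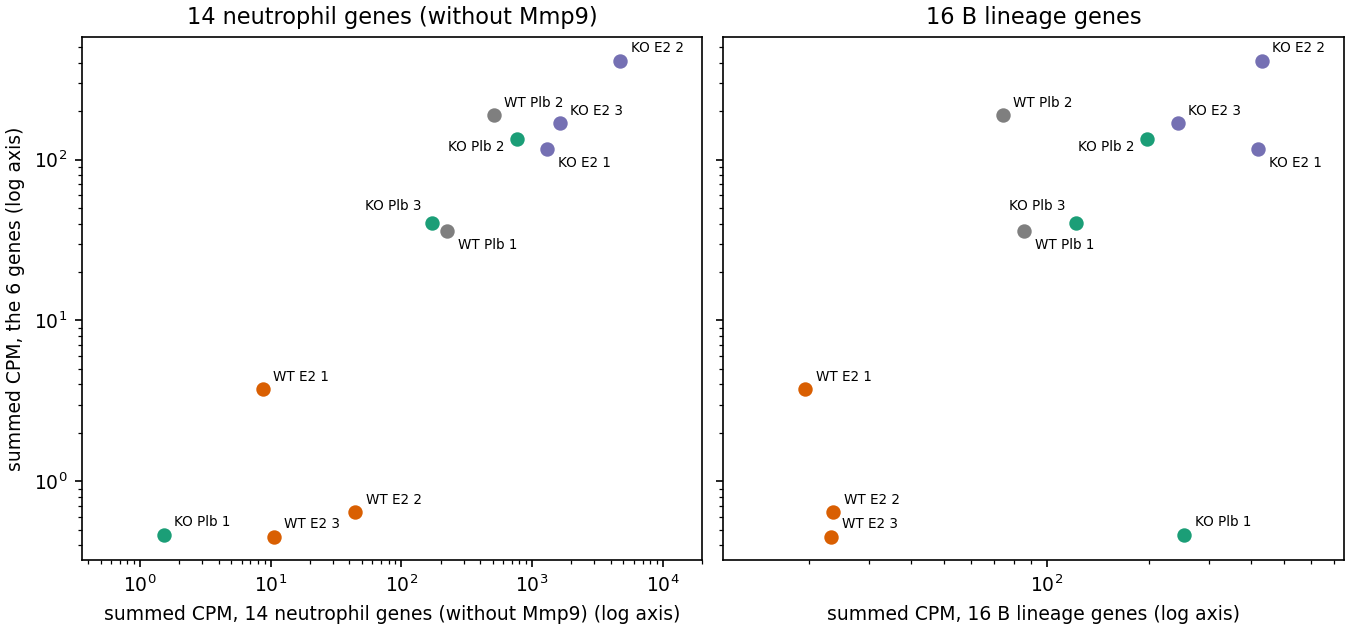
Summed CPM of the 6 genes against the summed CPM of 14 neutrophil genes (left) and of 16 B lineage genes (right), on log axes, with 1 labelled point per library. KO Plb 1 lies to the left of the WT estradiol libraries on the neutrophil axis and with the KO libraries on the B lineage axis.

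The other lineages followed less closely. Under estradiol, KO against WT gave 5 higher of 9 tested megakaryocyte genes, 1 of 6 red cell genes, 4 higher and 1 lower of 10 progenitor genes, 1 higher and 1 lower of 2 T and NK cell genes, and 5 higher of 10 cell cycle genes. Macrophage genes gave 0 higher and 7 lower of 9, cartilage genes 0 higher and 3 lower of 12, and fibrous layer genes 0 of 10. Muscle genes gave 0 of 9 and were summed at 7.89 to 10.6 CPM in KO E2 and 25.4 to 214 in WT E2. Under placebo they were at 33.7 and 1052 CPM in WT Plb and 439, 622 and 68.6 CPM in KO Plb. Within WT Plb the library with more muscle RNA had more Prg2 and Epx. Within KO Plb, KO Plb 2 had the most muscle RNA and the most Prg2 and Epx. KO Plb 1 had the least Prg2 and Epx, and more muscle RNA than KO Plb 3. The part of these lineages and of muscle in the levels of the 6 genes was not tested.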

How the data were processed

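Poly-A RNA of condylar fibrocartilage from 11 samples in 4 groups was sequenced, and the samples were grouped by the genotype and agent in the labels. The authors deposited a table of raw whole-number counts per gene symbol, and the submitters' processing notes list bcl2fastq 2.17, TopHat and build mm9. No source used here gives the counting program, the annotation or whether strand was used, so overlapping genes and near-identical copies are uncertain. The authors' 6 deposited tables of comparisons were not used. 0 columns were left unmapped to a sample.

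In R 4.3.3, edgeR 4.0.16 kept 14531 genes (filterByExpr, counts of at least 10 and 15 in total), scaled libraries by TMM and fitted 4 group means with robust quasi-likelihood dispersion over all 11 samples, leaving 7 residual degrees of freedom. Adjusted p-values are Benjamini-Hochberg over those genes, called under 0.05. The fit was tested on simulated data. Standard errors are the log2 difference over the square root of F. No 2 libraries of 1 group matched within sampling noise. Deviations from group means correlated above 0.1 in all 3 same-numbered pairs of KO Plb and KO E2 (r = 0.285, 0.42 and 0.183), so the replicate numbers were taken to pair these groups, from the data and not from a label. Alternatives were DESeq2 1.42.0, its size factors, no filter, a replicate block over all 4 groups and leaving out libraries. Depth was 15.7 to 25.5 M counts per sample, a floor of 0.118 to 0.204 CPM at 3 counts.

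The 6 genes and all lists were chosen with earlier results of these data known. Named related genes are a fixed set of 15 plus, in each comparison, the called genes with the smallest p, at most 8. For likeness, the 3 genes with the highest r were named, leaving out the 6 genes and immune receptor families, and 1 gene so chosen is not reported here.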

Additional observations from a re-analysis of the deposited data

Results flagged for a closer look

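In 4 of the 6 genes, all WT estradiol libraries lay below the WT placebo libraries and all KO estradiol libraries above the KO placebo libraries. Of all genes tested, 13.8% met the WT condition and 12.4% the KO condition. The share of all genes that met both was not counted. The mean level of Mcpt8 rose by 1.63 CPM in KO against a WT change of -1.42 CPM. For Prss34 the KO change was 3.27 CPM and the WT change -3.25 CPM. For Ms4a2 they were 0.802 and -0.339 CPM, and for Epx 28.7 and -14.6 CPM. These genes were picked out here by opposite direction without overlap, a pattern that was not tested for this purpose. The means of Cpa3 and Prg2 also fell with estradiol in WT and rose in KO, but their KO libraries overlapped. In the test of the difference across all genes, edgeR called Mcpt8 and Prss34 and not Ms4a2 or Epx, and since the genes were listed with this pattern known, no p-value is given. Groups of 2 or 3 libraries are too small for a test of single outlying samples.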

How the results depend on the processing

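Of the calls chosen by the naming rule, none changed direction under any alternative run. Counts of called genes within 1.5 times of those reported are not repeated. Counts are given for all genes, related genes and the 6 listed genes. With DESeq2, estradiol in WT called 656 genes, 10 related and 6 of the 6; estradiol in KO 952 and 11 related; the difference of effects 561, 15 related and 6 of the 6; KO against WT under placebo 40 and 2 of the 6. Without the low-count filter, 2 related genes were called for estradiol in WT and 1 for the difference of effects. With WT Plb 2 and KO Plb 1 both left out, an alternative chosen after seeing the data, related genes fell to 0 for estradiol in WT and 0 in KO, and all genes to 134 for estradiol in KO and 56 for the difference. Leaving out 1 library at a time gave 113 to 285 genes for estradiol in WT, 105 to 505 in KO (105 without KO Plb 1), 68 to 270 for the difference, 1 to 50 for genotype under placebo (50 without WT Plb 1) and 867 to 1850 under estradiol. Related genes ranged over 0 to 2, 0 to 5, 0 to 3, 0 to 1 and 9 to 22 in the same order, and the 6 listed genes over 2 to 3, 2 to 2, 2 to 4, 0 to 2 and 4 to 6. Where WT Plb was cut to 1 library, the lone sample is assumed to vary like the other groups. The causes were not tested.

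Replicate numbers are shared between groups, but of 15 same-numbered pairs 9 had deviations correlated above 0.1 (r from -0.188 to 0.42), so the numbers were taken to pair only KO Plb with KO E2, where all 3 pairs were, although 10 of 11 libraries were on average closer to their own number. The replicate block was fitted over all 4 groups. With it, 5 related genes were called for estradiol in WT, and 629 genes and 11 related for estradiol in KO. The difference called 301 genes, 11 related and 4 of the 6, and genotype under placebo 17 genes and 1 of the 6. Depth limits Ms4a2, Mcpt8, Prss34 and Cpa3 most, since they had at most 74 counts in any library.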
